A study of Mus musculus with 19 samples.

Results

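The Tnf, Lta and Ltb region is a stretch of mouse chromosome 17, from 35395000 to 35450000 in the mm39 build, whose peaks were selected by position alone. It held 18 accessible regions of the 140383 in the consensus list of the whole series. Open chromatin was mapped by ATAC-seq, an assay in which a transposase cuts and tags DNA wherever it is not packed away, in bone marrow-derived macrophages grown from mouse marrow. The 19 samples fall into 10 groups by their labels. Wild-type cells came from mice carrying Csf1r-Cre, and knockout cells came from Smarca5lox/lox mice carrying Csf1r-Cre. Csf1r is a gene of the macrophage lineage, so Cre recombinase is driven by a promoter active in these cells. Both genotypes received 4-hydroxytamoxifen each day during differentiation. Smarca5 encodes an ATPase of the ISWI chromatin remodelling complexes. Within each genotype, cells were left untreated or were given lipopolysaccharide (LPS, a bacterial cell wall product) at 10 ng/ml or the cytokine interferon beta (100 U/ml), each for 1 or 2 h. The groups had 2 samples each, except that wild-type cells under interferon beta for 1 h had 1, making 9 wild-type and 10 knockout samples.

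The design sets knockout against wild-type cells at rest and under each stimulus. The list used here gives a single set of values per peak, pooled over all samples, so no effect of genotype, LPS or interferon beta on this locus could be measured. No replicate error applies to any value, and sequencing depth is unknown. The values below therefore describe where chromatin was open at the locus in the pooled series. The labelled cell type and the deletion were not checked against marker genes or Smarca5 itself, because gene positions in mm39 were not used here apart from the position of Tnf that defines the locus.

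Tnf, Lta and Ltb encode tumour necrosis factor, lymphotoxin alpha and lymphotoxin beta, cytokines of one family that lie side by side within the major histocompatibility complex. Tumour necrosis factor is made early by macrophages that sense LPS, acts through its own receptors and drives NF-kB signalling and inflammation in neighbouring cells. Lymphotoxin alpha forms a secreted trimer that binds the same receptors, or joins lymphotoxin beta, a membrane protein, in a complex that signals through the lymphotoxin beta receptor and shapes lymphoid organs. The lymphotoxins are known mainly as products of lymphocytes. The Tnf gene is also a textbook case of regulation by DNase-hypersensitive elements that lie both upstream and downstream of a short promoter. Whether any peak below is one of those published elements was not tested.

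Tnf spans about 35418343 to 35420983 on the minus strand, so that transcription runs towards lower coordinates. Ltb lies on the downstream side of Tnf and Lta on the upstream side. The order of protein-coding genes in the RefSeq table, which is of another build (GRCm38.p6), was Aif1, Lst1, Ltb, Tnf, Lta, Nfkbil1 and Atp6v1g2. Aif1 encodes the macrophage protein IBA1, and Atp6v1g2 encodes a subunit of the vacuolar proton pump. Because that table is of another build, peaks are placed here by their distance from the start of Tnf and by side, and none is assigned to Lta, Ltb or another neighbour.

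A peak lay directly over the start of Tnf, from 286 bp upstream of it to 117 bp downstream. The 250 bases before the start therefore fell wholly within accessible chromatin. They are printed here because they are the only gene promoter of the locus that the peak list could be set against. The sequence is that of RefSeq in GRCm38.p6, in which the gene has the same length, 2641 bp, as the span used here, and it reads 5′ to 3′ along the gene, ending at the base before the start. Capitals mark matches to 2 short motifs.
Tnf promoter: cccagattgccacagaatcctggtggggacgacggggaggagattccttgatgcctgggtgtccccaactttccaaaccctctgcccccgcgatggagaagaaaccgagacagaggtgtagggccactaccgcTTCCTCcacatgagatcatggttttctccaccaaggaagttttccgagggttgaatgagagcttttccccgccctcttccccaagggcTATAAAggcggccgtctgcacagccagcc

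The first block of capitals, from -117 to -112 with the start at 0, is GAGGAA read on the opposite strand, the purine core bound by ETS factors such as PU.1, a lineage-determining factor of macrophages. The summit of the start peak lay at -134, just upstream of that match. The second block, from -29 to -24, is the TATA box sequence TATAAA, a core promoter element that was added to the search after the sequence had been read. Both strands were searched in the 250 bases before each start. GAGGAA occurred in 23.3% of the 32851 RefSeq promoters and TATAAA in 12.4%, so neither is rare as letters anywhere in that stretch. The share of promoters with a match at the same position and strand as in Tnf was not counted.

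The promoters of the other members differed in these letters. The Ltb promoter held GAGGAA from -101 to -96 and, from -87 to -78, a match to the NF-kB consensus that reads GGGACTTTCC on the opposite strand. The NF-kB consensus was matched in 7.25% of RefSeq promoters. The Lta promoter held neither of these, and held TATAAA only far from its start, from -167 to -162. None of the members' promoters matched the AP-1 motif TGANTCA (6.75% of RefSeq promoters) or the interferon-stimulated response element, searched as GAAA repeated after any 2 bases (2.98%), and those of Tnf and Lta did not match the NF-kB consensus in this window. The motifs did not overlap each other in these promoters. Such matches describe letters only and say nothing about binding.

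Each peak is described by its fold and its significance. The fold is the authors' deposited enrichment, in the column that MACS2 uses for enrichment over local background. The −log10 q is the authors' deposited significance after correction for multiple testing, where a larger number means stronger evidence for a peak. Relative −log10 q was computed here by dividing a peak's −log10 q by the median of all peaks in the same percentile of fold. A value of 1 is thus typical for that percentile, within which fold can still vary.

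**Figure D1:**
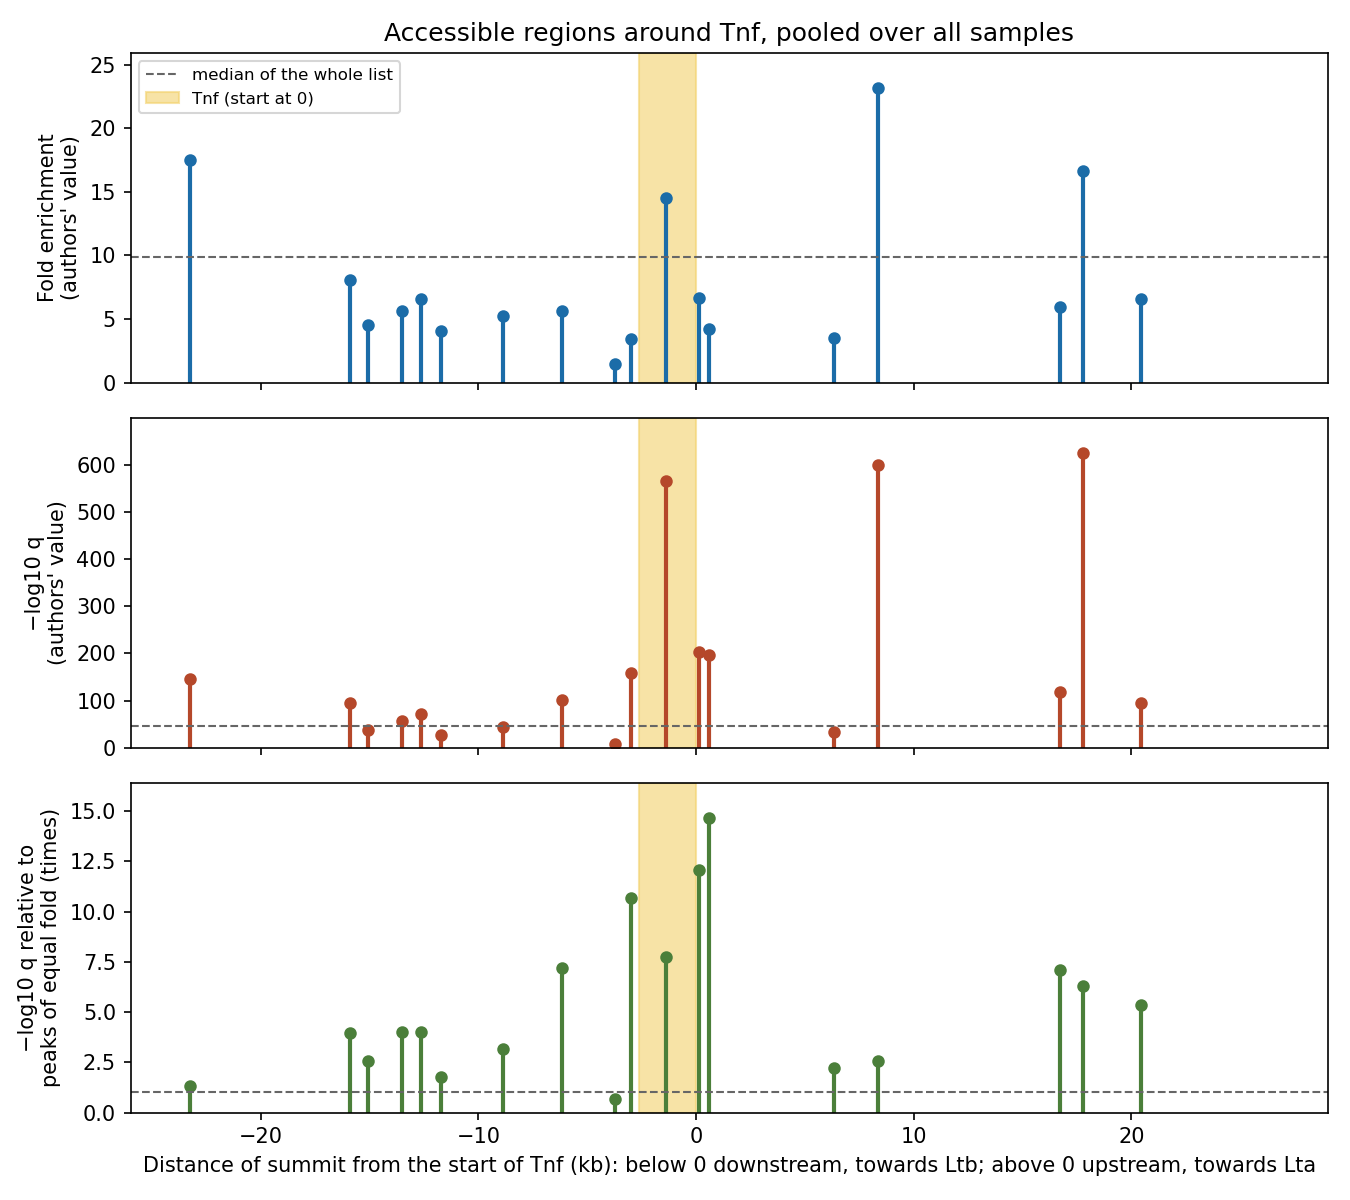
Each stem is one of the 18 peaks, placed by the distance of its summit from the start of Tnf in kb. The horizontal axis is in genome order with upstream above 0. The panels give fold, −log10 q and −log10 q relative to peaks in the same percentile of fold, labelled equal fold. The dashed lines are the medians of the whole list and the shaded band is Tnf. The highest fold, 23.1, stands upstream on the Lta side, and the highest relative −log10 q values, 12.1 and 14.7, stand over and just before the start of Tnf.

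Tnf itself was touched by 3 peaks, which covered 25.4% of its length. The start peak, from 35420866 to 35421269, was 404 bp wide, with a fold of 6.62 and a −log10 q of 203. A peak inside the gene, from 35419444 to 35419792, had a summit 1387 bp downstream of the start, a fold of 14.6 and a −log10 q of 566. The peak inside the gene thus exceeded the peak over its start, 2.20 times in fold and 2.78 times in −log10 q. The third, from 35417757 to 35418547, straddled the end of the gene, covering its last 205 bp and 586 bp beyond. It was the widest peak of the locus, at 791 bp, wider than 99.0% of the list, but its fold was only 3.46 with a −log10 q of 158.

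A further peak lay just before the start peak, from 35421496 to 35421680, with its summit 613 bp upstream of the start of Tnf. Its fold of 4.20 was higher than that of only 5.31% of the list, whereas its −log10 q of 198 was higher than that of 84.2%. Its relative −log10 q was 14.7, the highest of the locus and above 99.9% of the list. The start peak reached 12.1 by this measure, the peak at the gene's end 10.7 and the peak inside the gene 7.74. Low fold with high significance was thus shared by the peaks at both ends of Tnf.

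The exception near the gene was a peak from 35417145 to 35417325, whose summit lay 3746 bp downstream of the start, on the Ltb side. It had a fold of 1.50 and a −log10 q of 8.11, and no peak of the 140383 had a lower fold. Its relative −log10 q was 0.658, the only value of the locus below 1. That value sets it against the lowest percentile of fold, which also held peaks of much higher fold, up to at least 2.94. It is therefore not a comparison at equal fold. The next peak further downstream of Tnf, from 35414733 to 35414888, had a fold of 5.60, a −log10 q of 101 and a relative −log10 q of 7.22. Of the 6 peaks within 5000 bp of either end of Tnf, 5 reached a relative −log10 q of at least 5, against 4.19% of the whole list, and their median −log10 q was 178.

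Upstream of Tnf, on the Lta side, 7 peaks had their summits, the start peak included. The strongest in fold lay from 35428864 to 35429485, with its summit 8373 bp before the start of Tnf. It was 622 bp wide, with a fold of 23.1 and a −log10 q of 600.2, and was the only peak of the locus to reach a fold of 20, against 15% of the list. It exceeded the start peak 3.49 times in fold and 2.95 times in −log10 q. Its relative −log10 q of 2.56 was modest beside those of the peaks at the gene. A weak peak accompanied it on the side nearer Tnf, from 35427292 to 35427492, with a fold of 3.50 and a −log10 q of 33.2.

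Beyond that peak 8101 bp held no peak, the longest gap between neighbouring peaks of the locus, and then 3 peaks followed. The middle one, from 35438590 to 35438928, had its summit 17801 bp upstream of the start of Tnf and the highest −log10 q of the locus, 624, with a fold of 16.6. Its neighbour from 35437587 to 35438028 had a fold of 5.98 and a −log10 q of 117. The last, from 35441328 to 35441588, had a fold of 6.58 and a −log10 q of 95.5. All of these 3 had a relative −log10 q above 5, with values of 7.09, 6.32 and 5.34 in order of position.

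Downstream of Tnf, on the Ltb side, 10 peaks had their summits, including the peak at the gene's end and the list's weakest by fold. The outermost, from 35397631 to 35397875, was the strongest of this side in fold. Its fold of 17.5 and −log10 q of 145 went together as in the rest of the list, with a relative −log10 q of 1.31. Although its fold was close to that of the upstream peak with the highest −log10 q, the latter's −log10 q was 4.31 times higher. Then came 6935 bp without a peak.

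A row of peaks filled the ground between that outer peak and the neighbourhood of Tnf. The first, from 35404811 to 35405434, was 624 bp wide, wider than 96.7% of the list, with a fold of 8.06 and a −log10 q of 94.6. The others were narrow. The peak from 35405849 to 35405979 had a fold of 4.56 and a −log10 q of 37.6, and the peak from 35407328 to 35407498 a fold of 5.65 and a −log10 q of 56.1. The peak from 35408286 to 35408430 had a fold of 6.58 and a −log10 q of 71.6. From 35409204 to 35409354 the fold was 4.08 and the −log10 q 27.7, and from 35412073 to 35412201 the fold was 5.26 and the −log10 q 44.3. In this row, relative −log10 q ran from 1.79 to 4.00.

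The sides of Tnf differed in strength, as a description of these peaks and without a test. The median −log10 q was 198 over the 7 peaks of the Lta side, which ranged from 33.2 to 624, and 63.8 over the 10 peaks of the Ltb side, which ranged from 8.11 to 158. These ranges overlap. The median fold was 6.58 on the Lta side and 5.43 on the Ltb side. Median width was 339 bp on the Lta side and 164 bp on the Ltb side.

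Set against the whole list, the locus was low in fold and high in significance. Its median fold was 5.82, against 9.85 for the list and 9.96 for chromosome 17, and 4 of its 18 peaks reached the list's median fold, against 50% of the list by construction. A fold below 5 was found in 6 of the 18, or 33.3%, against 10.4% of the list. Its median −log10 q was 98.4, against 45.3 for the list and 48.9 for chromosome 17, and 13 of 18 peaks reached the list's median, again against 50%. The 3 peaks with a −log10 q of 566, 600.2 and 624 were in the top 5% of the list.

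The combination was seen peak by peak. Relative −log10 q was above 1 in 17 of the 18 peaks, against 50% of the list, and at least 5 in 8 of them, or 44.4%, against 4.19%. The median was 4.00. Spearman's rho between fold and −log10 q was 0.662 across the 18 peaks and 0.836 across the list. The peaks share one locus and one set of libraries and are not independent, so no test was made.

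**Figure D2:**
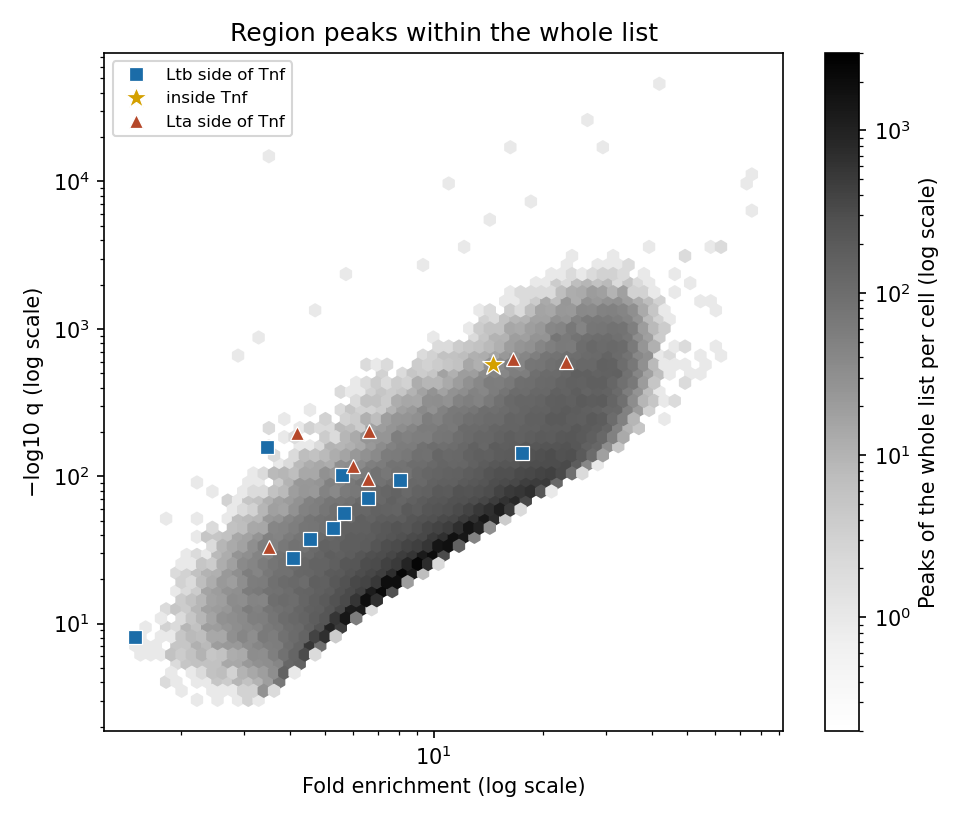
Grey cells count the peaks of the whole list by fold (horizontal, log scale) and −log10 q (vertical, log scale), and coloured symbols are the 18 peaks, split into those with summits on the Ltb side of Tnf, inside it and on the Lta side. All but one of the symbols lie above the median −log10 q for their percentile of fold, and the square at the far left is the peak of fold 1.50.

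No peak crossed the edges of the region. The nearest outside it lay 1233 bp below, with a fold of 9.21 and a −log10 q of 99.8, and 1123 bp above, with a fold of 3.65 and a −log10 q of 27.1.

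The locus was rich in peaks. Its 18 peaks covered 10.0% of its bases, against 1.67% of chromosome 17. Of 49426 windows of 55000 bp laid end to end along the assembled chromosomes, 251, or 0.508% (Wilson 95% interval 0.449% to 0.574%, counting error only), held at least 18 peaks. The median window held 1 peak and the fullest 27. At least 3 peaks in the top 5% by −log10 q were held by 274 windows, or 0.554%.

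**Figure D3:**
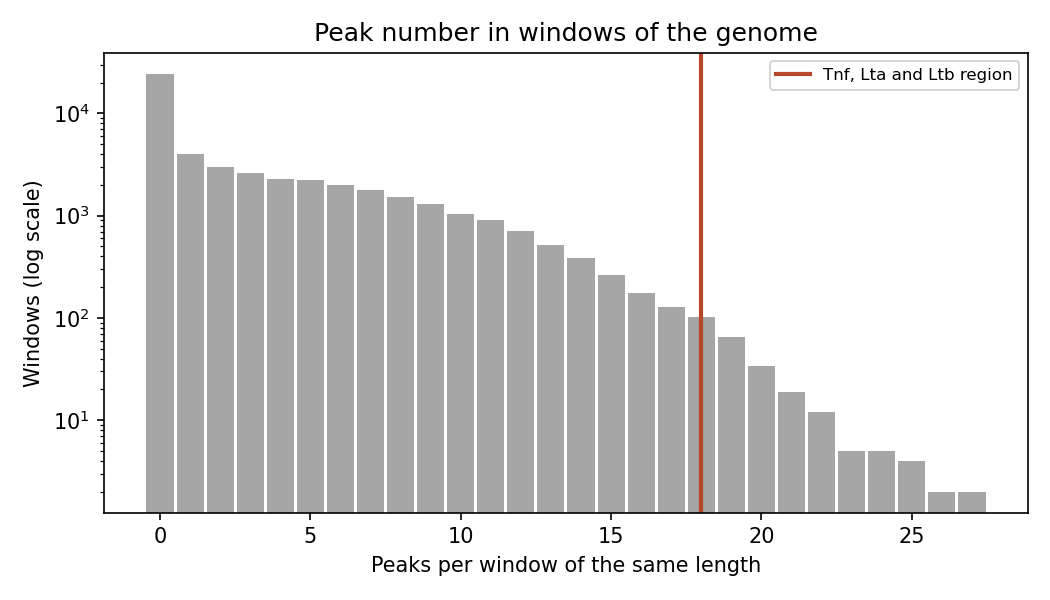
Bars count the windows of 55000 bp (vertical, log scale) that held each number of peaks (horizontal), and the line marks the 18 peaks of the Tnf, Lta and Ltb region. The line falls in the thin right tail, where 0.508% of windows held as many or more.

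Among windows at least as crowded, the low fold of the locus was less unusual than its high significance. Over the 251 windows with at least 18 peaks, the median fold of a window had quartiles of 5.90 and 8.12, and 23.9% of these windows had a median at or below that of the Tnf locus. The median −log10 q had quartiles of 35.7 and 73.0, and 87.6% of windows were at or below the Tnf locus. Median relative −log10 q had quartiles of 1.60 and 2.77, and 94.4% were at or below the 4.00 of the Tnf locus. Crowding and low fold therefore occurred together elsewhere in the list, and the part of crowding in the values of the Tnf locus was not tested.

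The deposited values can be read as means, although the way they were made is not stated. Multiplied by a small number, the score becomes whole and the fold and −log10 q end at 5 decimals or fewer, as means of values written to a fixed length would. The smallest number that does this for all 3 values of a peak is called its divisor here. Across the list divisors ran from 1 to 20, with no 11, 13, 15, 17 or 19, as means over up to 10 units would give if each unit were a mean of at most 2 values. On that reading a divisor of 20 needs all 10 units, and a divisor that does not divide 20 cannot come from 10. The labels name 10 groups, but whether a unit is a group was not tested, and no peak can be traced to a genotype or treatment.

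On that reading all 10 units were needed by 7 of the 18 peaks, or 38.9%, against 20.1% of the list. They were the start peak of Tnf, the peak inside the gene, the upstream peak of fold 23.1, the upstream peak from 35437587, and on the Ltb side the peaks from 35397631, 35408286 and 35414733. The share rose with significance in the list as well: it was 41.6% among all peaks with a −log10 q at or above the median of the Tnf locus, where the locus itself had 6 of 9. For the upstream peak of fold 23.1, the score alone needed 20, whereas the fold needed 2 and the −log10 q needed 1. How readily a divisor of 20 shows may thus depend on the size of the fold and of the −log10 q. The locus was low in fold and high in −log10 q, and whether either had a part in its share was not tested.

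On the same reading, fewer than 10 units stood behind 6 of the 18 peaks, or 33.3%, close to the 31.1% of the list. Among them were the peak at the end of Tnf and the peak just before its start, both with a divisor of 8, which allows 4 or 8 units. Their −log10 q values of 158 and 198 were higher than those of 80.8% and 84.2% of the list. The others were the peak from 35441328 with 9 units, and on the Ltb side the peaks from 35405849 with 8, from 35407328 with 9 and from 35412073 with 7.

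For the remaining 5 peaks the divisor left the number of units undetermined, as for 48.8% of the list. A divisor of 10, which allows 5 or 10 units, belonged to the upstream peak of highest −log10 q and to the peaks from 35404811 and 35409204. The weak upstream peak from 35427292 had a divisor of 4. The peak of lowest fold, from 35417145, had a divisor of 2, which any number of units can give.

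**Figure D4:**
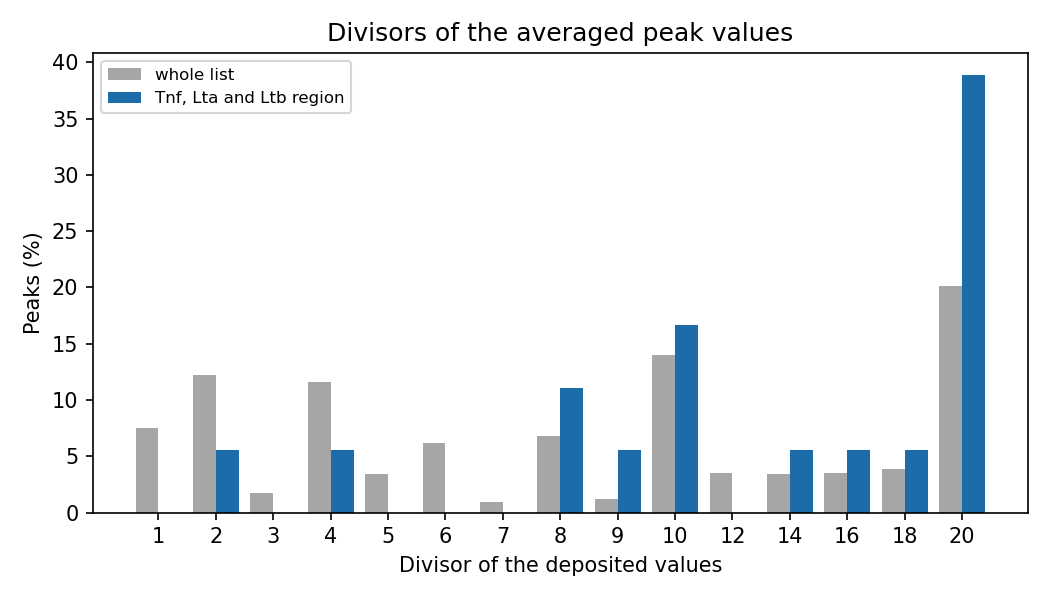
Bars give the percentage of peaks (vertical) with each divisor of the deposited values (horizontal), for the whole list in grey and for the 18 peaks of the Tnf, Lta and Ltb region in blue. The divisor 20 holds 38.9% of the region's peaks and 20.1% of the list.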

How the data were processed

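ATAC-seq of 19 macrophage samples was represented by one deposited consensus list of peaks without a header. The submitters' processing notes name MACS2 (version 2.2.7.1), STAR (2.7.9a), deepTools (3.5.1), Picard (2.27.4) and the mm39 build. What each did, how Tn5 offsets were handled, which threshold applied and how samples were merged into one list is not given in the sources used here. Per peak, pooled over samples, the authors deposited a score, a fold ratio, a −log10 q and a summit offset in bp. Depth is unknown.

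Coordinates were read as counted from 1, since no summit offset then reached the width, against 74 peaks under a count from 0. Peaks were selected by any overlap with the region. Relative −log10 q used 100 bins of fold. Divisors were the least common multiple of the smallest multipliers up to 20 that made the 3 values whole within 0.001. All but the score were taken at 5 decimals. The calculation was run on simulated means of pairs of values, which checks its arithmetic only. Such a check cannot say how the deposited values were made. Windows began at the first base of each assembled chromosome. No group comparison and no chance test was made.

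All peaks of the region are named, with the strongest, widest and those nearest the start of Tnf described most fully. Peaks entered by position alone, but the region, measures and thresholds were chosen with earlier results of these data known. Lta and Ltb starts, cell type markers and pathway genes had been planned and were not analysed here, because the RefSeq tables are of GRCm38.p6, and motifs were searched in promoters only. Alternatives covered the threshold, merging, region size, window placement and coordinate reading. Scripts ran in Python 3.11.15 with pandas 2.3.3, numpy 2.4.6, matplotlib 3.10.9 and scipy 1.17.1.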

Additional observations from a re-analysis of the deposited data

How the results depend on the processing

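Of 15 alternatives over 6 results, 10 stayed within 1.5 times for counts or within a 95% interval for medians and shares, and 0 reversed. Within 5000 bp of Tnf alone there were 6 peaks, because the area is smaller. Among windows with at least 1 peak, 1.00% held as many peaks as the region, because empty windows were left out. The strongest peak stood at percentile 90.0 of the list by fold, at 89.9 on chromosome 17 alone, and at 96.6 when the strongest was chosen by −log10 q, which is another peak. The summit nearest the start of Tnf lay at -134 bp, or at -135 bp if starts are counted from 0. With only peaks at or above the list's median −log10 q, 13 peaks remained, whose median fold was 6.58 and whose median width was 339 bp, against 223 bp. Merging peaks closer than 150 bp could not change the locus, because its smallest gap between peaks was 226 bp. Leaving out peaks with a relative −log10 q of 20 or more removed no peak, since the highest was 14.7. Counting only peaks wholly inside the region also changed nothing, as no peak crossed its edges. These alternatives are among those that stayed, but their outcome was fixed in advance and says nothing about robustness. No paired analysis was possible because peaks carry no sample or replicate. With depth unknown, a stretch without a peak cannot be called closed.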

Other observations

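The surroundings of the locus were looked at after its values were known. Within 20 kb below it, on the side of Lst1 and Aif1, lay 4 peaks, among them one from 35383805 to 35384516 that was stronger than every peak of the locus. It was 712 bp wide, with a fold of 26.4 and a −log10 q of 1567, higher than 99.8% of the list. The next, from 35391378 to 35391775, had a fold of 18.5 and a −log10 q of 259.6. None of these 4 had a divisor of 20 or a relative −log10 q of at least 5.

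Within 20 kb above it, on the side of Nfkbil1 and Atp6v1g2, lay 9 peaks with folds from 2.94 to 11.1. Their −log10 q ran from 16.7 to 259.7, and 5 of them had a relative −log10 q of at least 5, so that this feature was not confined to the neighbourhood of Tnf. A divisor of 20 was found in 3 of the 9.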
